A study of Meleagris gallopavo with 24 samples.

Results

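A set of 68 genes for histone and chromatin modifiers was followed in heart and liver of female turkeys (Meleagris gallopavo) after dietary exposure to salinomycin (Sal), an ionophore given in poultry feed against coccidia. These 68 genes, out of 11587 in the count table, were selected by name or identifier and not by a threshold on their values. Earlier results of these data were known. For 67 the deposited symbol belonged to a fixed set of families of writers, erasers, readers and remodellers of chromatin. BOD1L1 was taken by its gene identifier and not by a deposited symbol. It is counted in every share of the members below, so those shares rest partly on a gene added singly. A further 42 genes of these families had a RefSeq name but no deposited symbol. They were kept outside the members and counted with other chromatin genes, so the member counts do not cover these families in full. The Sal-exposed birds received 21 mg Sal per kg feed, an estimated daily dose of 0.9 mg/kg body weight, for the 2 weeks before sampling in week 13, and the control birds received the same diet without Sal. Each tissue had 12 libraries, 6 of them Sal-exposed, with 1 bird behind each library, and no allele, strain difference or second agent is named for any group. The birds were kept 4 to a pen, and the study's methods take both tissues from the same birds. Which heart and liver libraries share a bird is not stated, so the fits of both tissues treat the libraries as independent. Liver control 3 was left out for its low depth, so the liver comparison held 6 Sal-exposed against 5 control libraries. The study left it out too.

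Chromatin modifiers act on the packing of DNA around histones. Methyltransferases such as the COMPASS and Polycomb enzymes add methyl marks to histone H3 that go with active or silent genes, demethylases remove them, acetyltransferases and deacetylases do the same for acetyl groups, and ATP-driven remodellers of the CHD, ISWI and SWI/SNF families slide or evict nucleosomes. Several of these enzymes, EZH2 among them, are known to be more abundant in dividing cells.

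Total counts per library ranged from 23372118 to 35979378 in heart and from 15706646 to 31305782 in liver, and 48.3% to 86.9% of the heart counts and 16.7% to 46.2% of the liver counts fell on genes of the mitochondrial genome. The members held 10518 to 49924 counts per heart library and 19332 to 41513 per liver library. Cardiomyocyte and hepatocyte genes separated the tissues as labelled, with 12 of 12 cardiomyocyte genes lower and 16 of 16 hepatocyte genes higher in control liver against control heart (edgeR adjusted p at most 0.05). Member levels are CPM, counts per 1000000 counts of a library, scaled by TMM (trimmed mean of M-values) within a tissue, and a gene was called changed at an adjusted p of at most 0.05 in edgeR's quasi-likelihood test over all genes of the fit. In these bulk samples, fewer cells of a type and less RNA per cell cannot be told apart.

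Heart Sal-exposed libraries 1 and 5 stood apart from the other heart libraries. They also had the highest GC content of all heart libraries in the study's quality report. Of the counts outside the mitochondrial genome (nuclear counts), 0.0870% fell on the members in library 1 and 0.220% in library 5, against 0.355% to 0.437% in the other 4 Sal-exposed hearts and 0.248% to 0.491% in the control hearts. Library 1 also had the highest summed cardiomyocyte level, 132531 nuclear CPM (CPM over nuclear counts), and the lowest endothelial level, 317, against 58888 to 95044 and 714 to 1114 in the control hearts. In both libraries long genes were low relative to short ones, with a Spearman rho between a gene's level, relative to its mean over the heart libraries, and its genomic span of -0.39 and -0.40, against -0.08 to 0.24 in the other Sal-exposed hearts and -0.21 to 0.30 in the control hearts, where control 3 was lowest. The main heart counts, the values of role groups and the trends across members are therefore given with and without these 2 libraries, an alternative chosen after the data were seen. Both are Sal-exposed and were singled out partly by their low share of counts on the members. Leaving them out thus tends by construction to raise the members' heart values and to weaken the span trend. It is a description and not a test. Control 3, with the lowest share and rho of the control hearts, was kept.

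**Figure D1:**
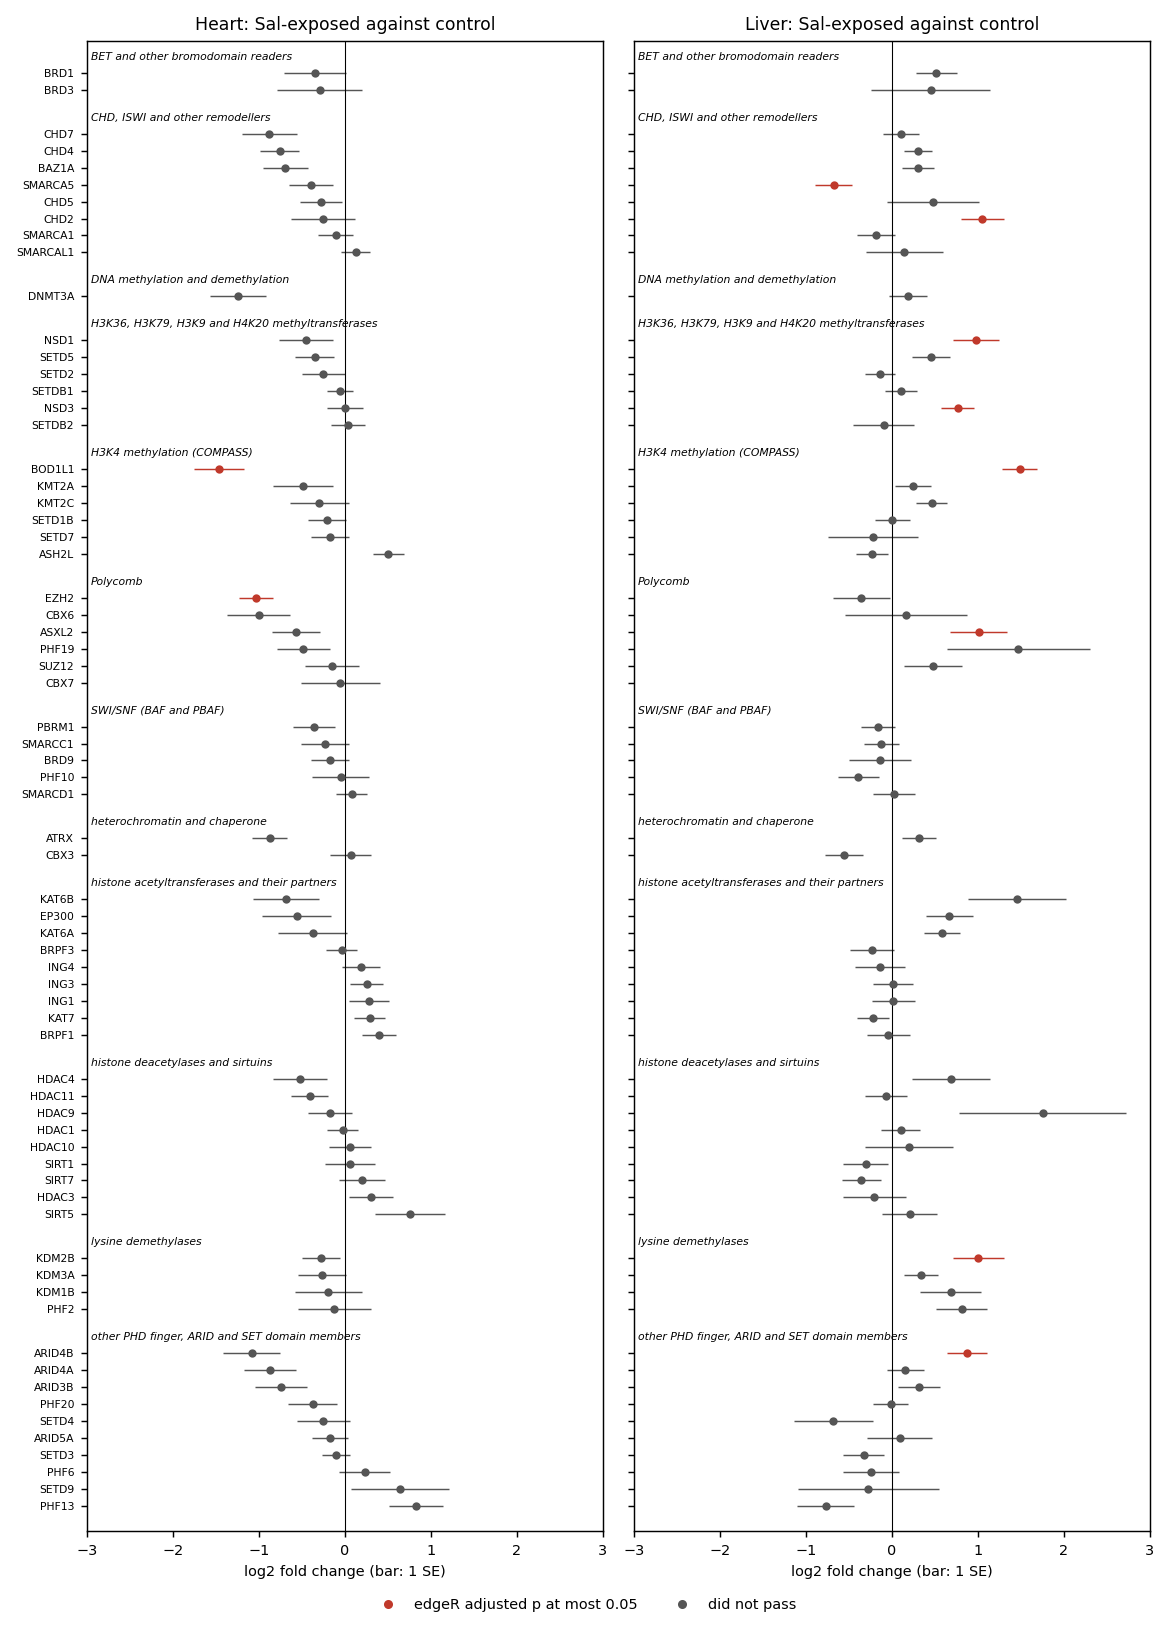
Log2 fold changes (points) with 1 SE (bars) for Sal-exposed against control birds, in heart on the left and liver on the right, for the 68 members grouped by role. Red points passed an edgeR adjusted p of 0.05: EZH2 and BOD1L1 in heart, and 8 of the 67 members tested in liver, 7 of them higher. The heart points lie mostly below 0.

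In the heart, 2 of 68 members changed, both lower in Sal-exposed birds: EZH2, the catalytic subunit of Polycomb repressive complex 2 (PRC2), which methylates lysine 27 of histone H3, and BOD1L1, a partner of the SETD1A COMPASS complex that protects stalled replication forks in human cells. That is 2.94% of the members, against 1.01% of all 10265 genes tested, of which 0.906% were lower. BOD1L1, 1 of these 2, is the member taken by its identifier. At an unadjusted p under 0.05, 13 members passed (19.1%, against 17.3% of all genes), 11 of them lower (16.2%, against 8.45%). The members' median log2 fold change was -0.22, against 0.01 over all genes, and 50 of 68 lay below 0 (73.5%, against 48.6% of all genes). Without Sal-exposed libraries 1 and 5, 3 of 68 members passed (BOD1L1, EZH2 and DNMT3A), against 104 of all 10434 genes. The members' median was then 0.00, against 0.02 over all genes, and 33 of 68 lay below 0 (48.5%, against 47.4% of all genes). The count of members called was 4 without Sal-exposed 3, 1 without Sal-exposed 5 or 6 or control 1, 2 or 4, and 0 without Sal-exposed 2 or control 6. For these fits the share over all genes is not given.

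EZH2 (ENSMGAG00000001370, chromosome 3, 889019 to 933358, Turkey_5.1) had 1.97, 3.06 and 3.57 CPM (lowest, median and highest) in the Sal-exposed hearts, against 5.07, 5.90 and 7.73 CPM in the control hearts. The groups did not overlap, and libraries 1 and 5 fell at 3.56 and 1.97 CPM. Its log2 fold change was -1.03 (SE 0.19, edgeR adjusted p = 0.0160), from 58 to 112 counts per Sal-exposed library and 144 to 254 per control library. Without libraries 1 and 5 it was -0.94 (edgeR adjusted p = 0.0252). Leaving out single libraries gave an adjusted p of 0.00948 to 0.0526, and EZH2 no longer passed without Sal-exposed 2 or control 6, nor when a trend with gene length on the genome was removed (-0.73), where BOD1L1 still passed.

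BOD1L1 (ENSMGAG00000017730, chromosome 4, 59798725 to 59813816) had 2.32, 5.89 and 10.2 CPM in the Sal-exposed hearts, against 13.4, 18.6 and 20.4 CPM in the control hearts. Again no Sal-exposed heart reached the lowest control, and library 1 was the lowest of all. The log2 fold change was -1.47 (SE 0.29, edgeR adjusted p = 0.0242), and -1.13 without libraries 1 and 5 (edgeR adjusted p = 0.0180). When single libraries were left out, the call was kept in 5 of the 12 fits and lost without Sal-exposed 2, 5 or 6 or control 1, 2, 4 or 6, with edgeR adjusted p of 0.00743 to 0.0923.

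Levels in 3 further members did not overlap between the groups, all lower, which makes 5 of 68 (7.35%, against 2.68% of all genes without overlap and 1.81% lower without overlap), but none of the 3 passed the adjusted p. DNMT3A, which sets new DNA methylation, had 2.50, 12.4 and 15.2 CPM in the Sal-exposed hearts, against 18.1, 27.6 and 30.6 CPM in the control hearts (log2 fold change -1.25, SE 0.33, edgeR adjusted p = 0.0885). ATRX, which deposits histone H3.3 in heterochromatin, had 10.8, 12.3 and 19.6 CPM against 20.9, 24.4 and 34.3 CPM in control hearts (-0.87, SE 0.20, edgeR adjusted p = 0.0574). CHD4, the ATPase of the NuRD remodelling and deacetylase complex and the member with the highest heart level, had 30.1, 68.9 and 81.7 CPM against 89.5, 107 and 113 CPM in control hearts (-0.76, SE 0.23, edgeR adjusted p = 0.138). For DNMT3A and CHD4 the lowest value was that of Sal-exposed library 1. Without libraries 1 and 5 DNMT3A passed at -0.90 (edgeR adjusted p = 0.0180), whereas ATRX at -0.68 and CHD4 at -0.48 did not (edgeR adjusted p = 0.152 and 0.145). The calls of these 3 genes depended on the method. All 3 passed with DESeq2, with limma-voom and with surrogate variables in edgeR and in DESeq2. None of the 3 passed when a trend with gene length on the genome was removed.

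**Figure D2:**
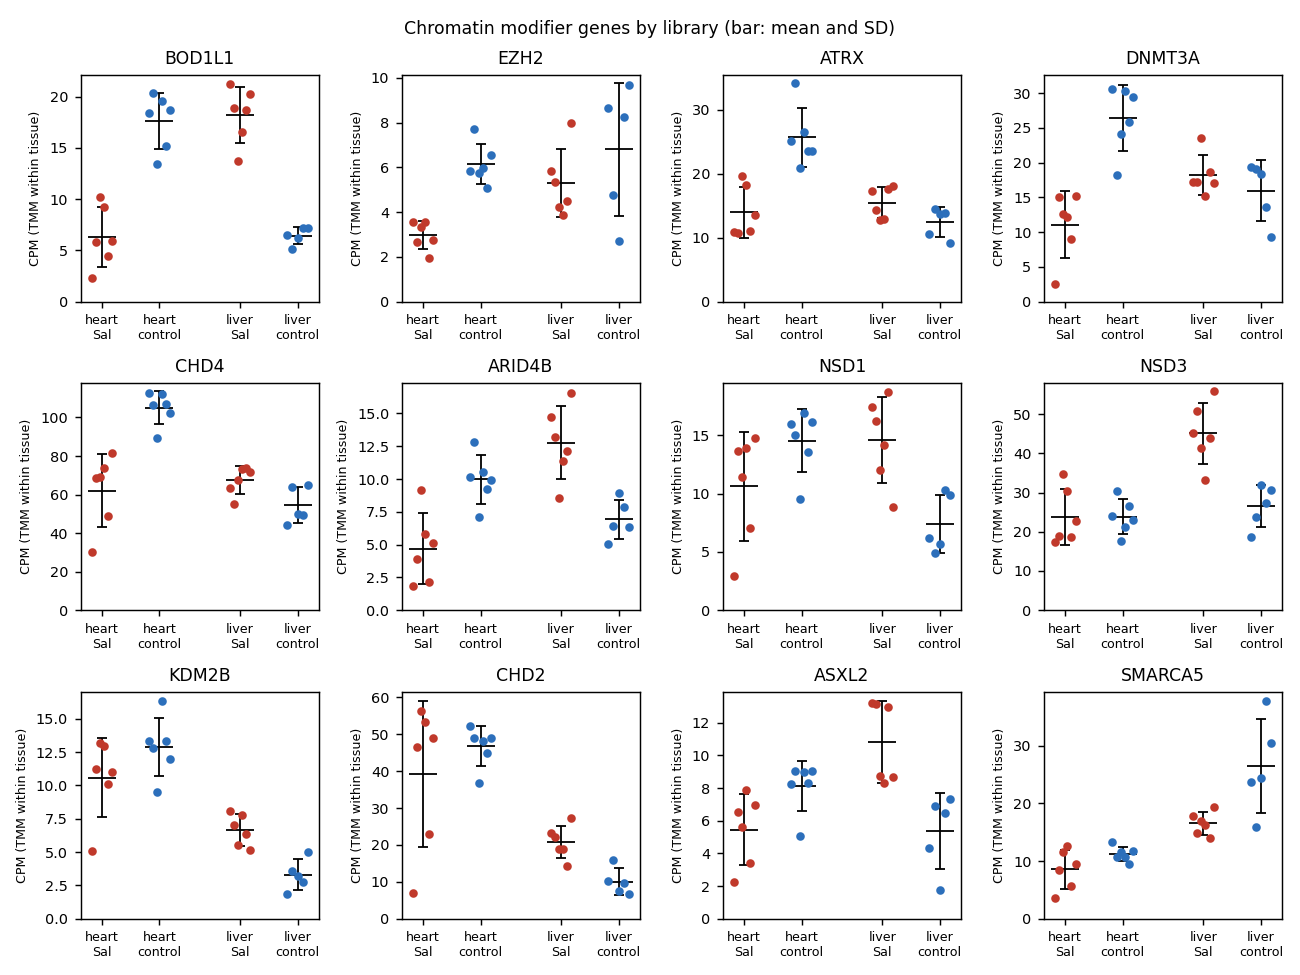
CPM in each library (points) with the mean and SD (bars) for 12 members, Sal-exposed birds in red and control birds in blue, heart groups on the left and liver groups on the right of each panel, with n = 6 per group and 5 control livers. BOD1L1 lies at 2.32 to 10.2 CPM in Sal-exposed hearts below every control heart, and at 13.8 to 21.2 CPM in Sal-exposed livers above every control liver.

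The rest of the Polycomb group had heart values below 0 without a call. All 6 members lay below 0 (all genes 48.6%), and 5 of 6 without Sal-exposed libraries 1 and 5, when SUZ12 was at 0.19 and the group median was -0.36. With all libraries they ran from -1.03 for EZH2 to -0.05 for CBX7, with CBX6, a reader of the PRC1 complex, at -1.0 (SE 0.36, edgeR adjusted p = 0.195) and SUZ12, the PRC2 partner of EZH2, at -0.15. ASXL2, a partner of the histone H2A deubiquitinase BAP1 and the Polycomb group member with the highest level over both tissues, was at -0.57 (SE 0.28, edgeR adjusted p = 0.299), and at -0.22 without libraries 1 and 5.

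Among the H3K4 methylation genes, 5 of 6 lay below 0 in heart, and 3 of 6 without Sal-exposed libraries 1 and 5. KMT2C, a large enhancer methyltransferase and the most abundant of this group, was at -0.30 (SE 0.34) and turned to 0.091 without these libraries and to 0.013 and 0.020 with surrogate variables in edgeR and DESeq2. ASH2L, a core subunit shared by COMPASS complexes, was at 0.51 (SE 0.18, edgeR adjusted p = 0.191). Of the enzymes for other histone H3 sites, SETD2, the main enzyme for trimethylation of H3K36, was at -0.25 (SE 0.25), or 0.059 without these libraries, and NSD3 at -0.0021 (SE 0.21).

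In several other role groups the count below 0 changed without Sal-exposed libraries 1 and 5. Of the 8 CHD, ISWI and related remodellers, 7 lay below 0, with a group median of -0.33, and 5 without these libraries, with a median of -0.07. CHD4 alone of them was free of overlap. The 5 SWI/SNF members ranged from -0.36 for PBRM1, a bromodomain subunit of the PBAF complex, to 0.08 for SMARCD1, with 4 of 5 below 0, and 1 of 5 without libraries 1 and 5. The acetyltransferase group had 5 of 9 members above 0 (all genes 51.4%), from -0.69 for KAT6B to 0.39 for BRPF1, the scaffold of the KAT6 complexes (SE 0.20, edgeR adjusted p = 0.308), and KAT7, its most abundant member, at 0.29 (SE 0.18), and 7 of 9 were above 0 without libraries 1 and 5. The deacetylases and sirtuins had 5 of 9 above 0 with and without these libraries, and SIRT1 at 0.06 (SE 0.29). The 4 lysine demethylase members lay between -0.28 and -0.13, with KDM3A at -0.26, and 3 of 4 lay above 0 without libraries 1 and 5, KDM3A at 0.071. CBX3, a heterochromatin protein of the HP1 family, was at 0.07 and BRD1, a scaffold of the KAT7 complex, at -0.34, or 0.054 without these libraries.

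Of the remaining PHD finger, ARID and SET domain members, ARID4B, a subunit of the SIN3 deacetylase complex, had the lowest heart value (-1.08, SE 0.33, edgeR adjusted p = 0.145), and PHF13, a reader of trimethylated H3K4, the highest (0.83, SE 0.32, edgeR adjusted p = 0.219). PHF13 stood at 18.2 CPM in Sal-exposed library 1, against 4.44 to 8.04 CPM in the other Sal-exposed hearts and 3.56 to 5.01 CPM in the control hearts. Without libraries 1 and 5 ARID4B was at -0.69 and PHF13 at 0.29. ARID5A, known in mouse as an RNA-binding protein, was at -0.17.

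Genes of the cell cycle were lower beside EZH2 in heart: 19 of the 30 such genes tested fell and none rose, of 32 on the list. Their summed level was 126 to 425 nuclear CPM in Sal-exposed hearts, against 599 to 1117 in control hearts (means 282 ± 104 and 831 ± 173, SD, n = 6 each, exact two-sided permutation test over 22 such measures, adjusted p = 0.0238). All 32 genes had counts in heart. Their part in the EZH2 result was not tested. UHRF1, which recruits maintenance DNA methylation and is also on the cell cycle list, was the only one of 160 other chromatin genes tested in heart that changed (-2.13, SE 0.40, edgeR adjusted p = 0.0148), at 0.904 ± 0.597 CPM in Sal-exposed hearts and 4.11 ± 1.29 CPM in control hearts (SD, n = 6 each).

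In the liver, 8 of 67 members tested changed, 7 of them higher in Sal-exposed birds: BOD1L1, CHD2, NSD3, ARID4B, NSD1, KDM2B and ASXL2. SMARCA5, the ATPase of ISWI complexes, was the 1 member that fell. The share, 11.9% of the members, stands near that over all 10269 genes tested, 14.3%, of which 7.36% were higher and 6.89% lower. CBX7 was the 1 member removed by the filter on low counts. The members' median log2 fold change was 0.11, against 0.03 over all genes, and 41 of 67 lay above 0 (61.2%, against 51.8% of all genes). At an unadjusted p under 0.05, 16 members passed (23.9%, against 30.1% of all genes), 13 of them higher (19.4%, against 15.2%). The count of members called was 4 without Sal-exposed 1 or 5, 2 without Sal-exposed 2, and 5 without Sal-exposed 4 or control 5. It rose to 12 without control 2, where EP300, KAT6A, PHF13 and PHF2 also passed. For these fits the share over all genes is not given.

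BOD1L1 had 13.8, 18.8 and 21.2 CPM (lowest, median and highest) in the Sal-exposed livers. The 5 control livers had 6.54, 5.12, 6.24, 7.19 and 7.15 CPM. The lowest Sal-exposed liver thus lay well above the highest of these 5 controls, and the log2 fold change was 1.49 (SE 0.20, edgeR adjusted p = 0.000863). It passed in each of the 11 fits that left out 1 liver library, at 1.42 to 1.56. Liver control 3, the shallow library left out, went the other way. Of its 3729229 counts, 269 fell on BOD1L1, a larger share than in any other liver library. When it was put back, BOD1L1 no longer passed (0.25, edgeR adjusted p = 0.865), nor did any other member.

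CHD2, a chromodomain remodeller, had 14.3, 20.5 and 27.3 CPM in Sal-exposed livers, against 10.3, 15.9, 7.49, 9.54 and 6.58 CPM in the control livers. Control 2 overlapped the lowest Sal-exposed liver. The log2 fold change was 1.05 (SE 0.25, edgeR adjusted p = 0.0144), and CHD2 passed in each of the 11 fits without 1 liver library.

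NSD1 and NSD3, which both methylate lysine 36 of histone H3, rose. NSD3 had 33.3, 44.6 and 55.9 CPM in Sal-exposed livers, against 18.8, 23.8, 31.9, 27.4 and 30.7 CPM in the control livers, with no overlap (0.77, SE 0.19, edgeR adjusted p = 0.0173). NSD1 had 8.86, 15.2 and 18.7 CPM, against 6.17, 4.89, 5.67, 10.3 and 9.85 CPM in control livers, where Sal-exposed 6 lay among the controls (0.98, SE 0.27, edgeR adjusted p = 0.0259). Without Sal-exposed 2 NSD3 lost its call, and NSD1 did without Sal-exposed 1, 2 or 5 (edgeR adjusted p up to 0.0645 for NSD1, and just above the threshold for NSD3). SETD2, which trimethylates the same residue and was the most abundant member of all in liver, averaged 96.0 ± 14.1 CPM in Sal-exposed livers and 106 ± 18.1 CPM in control livers (-0.14, SE 0.18, edgeR adjusted p = 0.641).

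KDM2B, a demethylase of H3K36 that also brings a Polycomb complex to CpG islands, had 5.15, 6.71 and 8.10 CPM in Sal-exposed livers, against 1.88, 3.61, 3.22, 2.72 and 5.01 CPM in the control livers (1.01, SE 0.30, edgeR adjusted p = 0.0327). ASXL2 had 8.29, 10.8 and 13.2 CPM, against 4.32, 6.88, 1.73, 6.5 and 7.32 CPM in control livers (1.01, SE 0.33, edgeR adjusted p = 0.0490). Neither gene overlapped between the groups, so that with BOD1L1 and NSD3 4 of 67 members did not (5.97%, all 4 higher, against 10.1% of all genes without overlap and 6.6% higher without overlap). Both calls were unsteady: KDM2B passed in 5 and ASXL2 in 3 of the 11 fits without 1 liver library (edgeR adjusted p up to 0.0767 and 0.114). KDM2B was lost without Sal-exposed 1, 2, 4 or 5 or control 1 or 5, and ASXL2 without any 1 of the Sal-exposed livers or control 1 or 5.

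ARID4B had 8.53, 12.7 and 16.6 CPM in Sal-exposed livers, against 5.02, 6.41, 8.93, 7.88 and 6.36 CPM in the control livers (0.87, SE 0.23, edgeR adjusted p = 0.0231). Only control 4 reached the range of the Sal-exposed livers, and without Sal-exposed 2 the call was lost (edgeR adjusted p = 0.0579). SMARCA5 had 14, 16.6 and 19.4 CPM in Sal-exposed livers, against 23.7, 15.9, 24.4, 37.7 and 30.4 CPM in control livers (-0.68, SE 0.21, edgeR adjusted p = 0.0442). Its call held in 1 of the 11 fits without 1 liver library, the one without control 2, the control with the lowest SMARCA5 level (edgeR adjusted p of 0.0108 to 0.136 over the 11).

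Several further members had liver values above 0 that missed the threshold. KAT6B, a histone acetyltransferase, had 2.68, 5.83 and 7.22 CPM in Sal-exposed livers, against 4.25, 2.51, 0.0960, 1.43 and 1.29 CPM in the control livers (1.46, SE 0.57, edgeR adjusted p = 0.0909). KMT2C stood at 0.47 (SE 0.18, edgeR adjusted p = 0.0912), KAT6A at 0.58 (SE 0.21, edgeR adjusted p = 0.0757) and the other lysine demethylases PHF2, KDM1B and KDM3A at 0.81, 0.68 and 0.34.

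On the lower side, CBX3 averaged 22.2 ± 4.97 CPM in Sal-exposed livers and 32.6 ± 10.9 CPM in control livers (-0.55, SE 0.22, edgeR adjusted p = 0.103), and PHF13 was at -0.77 (SE 0.33, edgeR adjusted p = 0.120). All but 1 of the SWI/SNF members lay below 0 (all genes 48.2%), with values from -0.39 for PHF10 to 0.03 for SMARCD1, with PBRM1 at -0.16. EZH2 had 3.87, 4.92 and 8 CPM in Sal-exposed livers, against 8.64, 4.74, 2.69, 8.25 and 9.68 CPM in control livers, with wide overlap (-0.36, SE 0.33, edgeR adjusted p = 0.497). The 9 deacetylases and sirtuins among the members had no call, with 5 of 9 above 0 and SIRT1 at -0.31. Outside the members, HDAC2 (-1.15, edgeR adjusted p = 0.0171) and SIRT6 (-0.87, edgeR adjusted p = 0.0488) fell. HDAC7, also outside the members, rose (0.87, edgeR adjusted p = 0.0231). DNMT3A was at 0.19, ATRX at 0.32, CHD4 at 0.31, BRD1 at 0.52, KAT7 at -0.22 and ARID5A at 0.09, none of them past the threshold.

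Other cell type markers moved with the liver groups. Enterocyte genes summed to 642 to 1372 nuclear CPM in Sal-exposed livers, against 2890 to 26497 in control livers, and 7 of the 11 tested fell. Cardiomyocyte genes summed to 56.1 to 111, against 4.69 to 37.3 in control livers (2 of 7 tested rose, 1 of 12 without a count), and endothelial genes to 97.2 to 178, against 48.7 to 82.2 (2 of 6 rose). Each of the 3 sums differed at an adjusted p of 0.0238 (exact permutation test, 6 against 5 libraries), and Sal-exposed livers also had more genes with a count (10918 to 11350, against 9268 to 11055, adjusted p = 0.0381). In the study's quality report, every Sal-exposed liver also had a higher share of uniquely aligned reads than any control liver. All 12 enterocyte genes had counts in liver, and 8 of the 30 cell cycle genes tested fell and none rose. The summed cell cycle level did not pass, at 92.4 to 158 nuclear CPM against 111 to 276 in control livers (exact permutation test, adjusted p = 0.122). The part of these measures in the members' changes was not tested.

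The other chromatin genes moved in both directions in liver. Of 158 tested, 19 rose and 10 fell (18.4% in all, against 14.3% of all genes). Of the 42 genes of the members' families named by RefSeq only, 6 rose and 3 fell. Among those that rose were KDM7A, a demethylase (1.69, SE 0.29, edgeR adjusted p = 0.00298), the nuclear receptor coactivator NCOA2 (1.45, SE 0.25, edgeR adjusted p = 0.00320) and ARID1B, a BAF subunit (1.32, SE 0.26, edgeR adjusted p = 0.00538). Among those that fell were the histone chaperone ANP32A (-1.39, SE 0.23, edgeR adjusted p = 0.00252), the deacetylase HDAC2 (-1.15, SE 0.28, edgeR adjusted p = 0.0171) and SMARCE1, a BAF subunit (-0.77, SE 0.18, edgeR adjusted p = 0.0155). Of the 30 histones and histone chaperones tested, 1 rose and 5 fell.

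Whether Sal acted differently on a member in liver than in heart was tested by the tissue by treatment term over 23 libraries, as the effect in liver minus that in heart. It passed for 12 of 68 members (17.6%), near the 18.5% of all 11158 genes tested. The 10 with a positive difference were BOD1L1, ARID4B, ATRX, KDM2B, CHD4, ASXL2, DNMT3A, NSD1, KAT6B and BAZ1A (14.7% of the members, against 10% of all genes), and the 2 with a negative one were PHF13 and ASH2L (2.94%, against 8.45%). Without heart Sal-exposed libraries 1 and 5, 10 of 68 members passed, against 1323 of all 11213 genes. With them, 2060 of 11158 genes had passed. KAT6B, PHF13 and ASH2L no longer passed, and CHD2 did. Without heart Sal-exposed 3 or 4 alone, 21 members passed, but the share over all genes is not given for these fits.

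BOD1L1 differed most, by 2.94 (SE 0.36, edgeR adjusted p = 6.54e-05), with 1.49 in liver and -1.47 in heart. With the shallow liver control 3 included the difference was 1.83 and no longer passed (edgeR adjusted p = 0.0822), and of the 12 members ARID4B, ASXL2, ATRX, CHD4, DNMT3A and KAT6B still passed. It was the 1 member called in both tissues, in opposite directions. ARID4B differed by 1.95 (SE 0.42, edgeR adjusted p = 0.00367), with 0.87 in liver and -1.08 in heart, and KAT6B by 2.14 (SE 0.69, edgeR adjusted p = 0.0316), with 1.46 in liver and -0.69 in heart. ASXL2, NSD1 and KDM2B, past the threshold in liver, differed by 1.57, 1.41 and 1.28.

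For ATRX, CHD4, DNMT3A and BAZ1A, a partner of the ISWI ATPases, the values lay farther from 0 in heart than in liver. ATRX differed by 1.18 (SE 0.27, edgeR adjusted p = 0.00537), with 0.32 in liver and -0.87 in heart, DNMT3A by 1.43, CHD4 by 1.06 and BAZ1A by 0.99. PHF13 ran the other way, at -0.77 in liver and 0.83 in heart (difference -1.60, SE 0.47, edgeR adjusted p = 0.0196), as did ASH2L, at -0.23 in liver and 0.51 in heart (-0.75, SE 0.25, edgeR adjusted p = 0.0423). KAT7, at -0.52, had the next smallest p on the negative side and did not pass (edgeR adjusted p = 0.166).

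EZH2, called in heart, did not differ past the threshold between the tissues (0.66, SE 0.39, edgeR adjusted p = 0.219), nor did CHD2 (1.30, edgeR adjusted p = 0.0508), NSD3 (0.76, edgeR adjusted p = 0.0608) or SMARCA5 (-0.29, edgeR adjusted p = 0.574), called in liver. Across the 67 members tested in both tissues, 35 lay above 0 in liver and below 0 in heart (52.2%, against 32.5% of the 9484 genes tested in both), 12 the reverse, 6 above 0 and 14 below 0 in both. Without heart Sal-exposed libraries 1 and 5, 23 of the 67 lay above 0 in liver and below 0 in heart (34.3%, against 26.7% of 9610 genes). The rank correlation of the liver and heart values across genes was -0.49 over the members and -0.38 over all these genes, and -0.24 and -0.12 without these libraries. All points of 1 tissue come from the same libraries, and genes are not independent replicates.

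**Figure D3:**
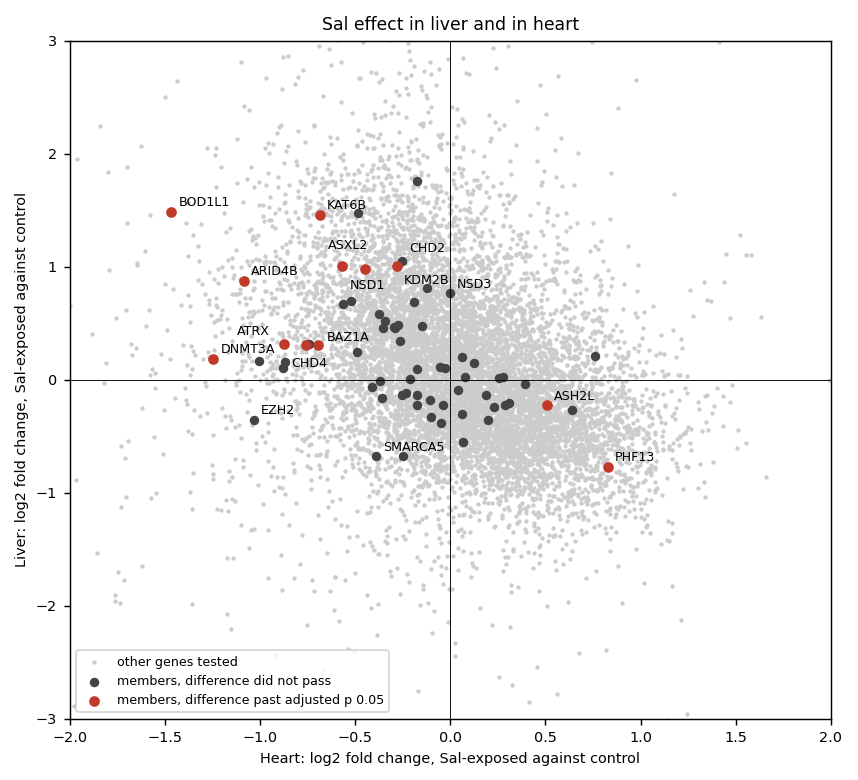
Log2 fold change of Sal-exposed against control birds in liver (vertical axis) and in heart (horizontal axis) for the 67 members tested in both tissues, over the other genes tested in grey, a few of which lie outside the axes. Red members passed the test of the difference between tissues. BOD1L1 lies at 1.49 in liver and -1.47 in heart, and 35 members lie at the upper left, above 0 in liver and below 0 in heart, against 23 when heart Sal-exposed libraries 1 and 5 are left out.

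The members' changes went with genomic span, the distance from the first to the last base of a gene model, which includes introns. The members spanned 1.51 to 481 kb with a median of 21.7 kb, against 10.5 kb over all genes. Spearman's rho between span and log2 fold change was 0.47 over the members and 0.22 over all genes in liver, and -0.57 over the members and -0.34 over all genes in heart. Without Sal-exposed libraries 1 and 5 the heart values were -0.17 over the members and -0.03 over all genes. These are correlations across genes of the same libraries and are given as a description. The longer members had a median of 0.40 in liver and -0.36 in heart, and the shorter ones -0.09 in liver and 0.01 in heart. Without libraries 1 and 5 the heart medians were -0.04 and 0.06.

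The trend with span was also a property of single libraries. Its rho was -0.09 to 0.32 in Sal-exposed livers, against -0.26 to -0.03 in control livers (exact permutation test, p = 0.0173, adjusted p = 0.0635), and -0.40 to 0.24 in Sal-exposed hearts, against -0.21 to 0.30 in control hearts (adjusted p = 0.251). When a smooth trend with span was removed from each library, 3 members passed in liver, BOD1L1 higher and PBRM1 and SMARCA5 lower. In heart 1 passed, BOD1L1, and 9 passed in the difference, with BOD1L1 and ARID4B still among them. PBRM1 in liver, and KAT7, PHF19 and SETD3 in the difference, had not passed without the offset. Shares over all genes are not given for these fits, so the counts do not show that members lost more calls than other genes. The liver median of the members was then -0.07, against 0.11 without the offset. BOD1L1 itself spans 15.1 kb and EZH2 44.3 kb.

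**Figure D4:**
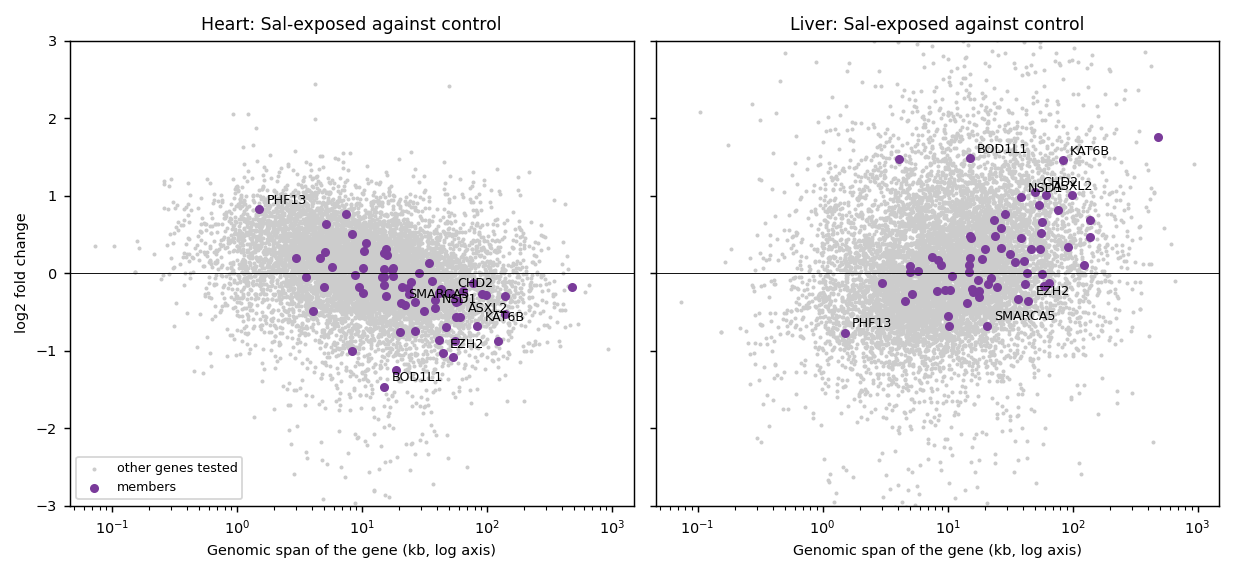
Log2 fold change of Sal-exposed against control birds (vertical axis) against the genomic span of the gene in kb (log axis), for the members in purple over the other genes tested in grey, in heart on the left and liver on the right. The members' cloud slopes down in heart (rho -0.57, or -0.17 without Sal-exposed libraries 1 and 5) and up in liver (rho 0.47), while BOD1L1, at 15.1 kb, lies away from both slopes.

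Without Sal, 21 of 68 members differed between the tissues, 8 higher in control liver (11.8%) and 13 lower (19.1%) than in control heart. That is 30.9% of the members, against 57.6% of all 11158 genes, of which 29.8% were higher and 27.8% lower. This contrast shares its control libraries with the comparisons above, and heart and liver were homogenised with different reagents, so tissue and extraction cannot be told apart. Levels in this contrast are CPM scaled over all 23 libraries.

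The 8 members higher in liver had log2 fold changes of 0.55 to 1.27. SIRT7, a nucleolar deacylase, averaged 7.52 ± 1.04 CPM in control livers (n = 5) and 3.07 ± 0.491 CPM in control hearts (n = 6) (1.27, SE 0.26, edgeR adjusted p = 0.000124). The ISWI ATPases SMARCA5 and SMARCA1 were at 1.13 and 1.00, SETD1B, the catalytic subunit of a COMPASS complex, at 1.07, ING1, a reader of methylated H3K4, at 0.96, HDAC11, a class IV deacetylase, at 0.92, CBX3 at 0.82 and BAZ1A at 0.55.

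The 13 members lower in liver had log2 fold changes down to -5.52. HDAC9, a class IIa deacetylase known to hold back the muscle factor MEF2, had 0, 0, 1.87, 0.581 and 0.278 CPM in the control livers, against 21.3, 28.9 and 33.5 CPM (lowest, median and highest) in the control hearts (-5.52, SE 0.68, edgeR adjusted p = 8.29e-08). KAT6B was at -2.62, CHD2 at -2.33, KDM2B at -2.05, BOD1L1 at -1.54, ATRX at -1.15, CHD4 at -1.05, NSD1 at -1.07 and SETD5 at -0.83. Of the Polycomb genes, PHF19, an accessory subunit of PRC2, was at -2.30 and CBX6 at -2.02, both low in liver at 0.413 ± 0.296 and 1.07 ± 0.597 CPM, whereas EZH2 averaged 6.61 ± 2.91 CPM in control livers and 6.40 ± 0.861 CPM in control hearts (0.05, SE 0.28, edgeR adjusted p = 0.891). The remaining 2 of the 13 were DNMT3A at -0.83 and ING3 at -0.61. Polycomb genes outside the members, named by RefSeq only, also differed. EZH1 (-1.70, edgeR adjusted p = 1.02e-05) and ASXL3 (-2.07, edgeR adjusted p = 9.16e-06) were lower in liver, and CBX8 (1.38, edgeR adjusted p = 0.0248) was higher.

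Of the 7 members that rose in Sal-exposed livers, BOD1L1, CHD2, KDM2B and NSD1 were lower in control liver than in control heart. Over all members 19.1% were lower, and over all genes 27.8%. Both comparisons use the same control livers, so low values there favour both calls, and the overlap is not a result. BOD1L1 stood at 6.26 ± 0.866 CPM in control livers and 18.3 ± 2.68 CPM in control hearts. In Sal-exposed birds on the same scale it stood at 13.3 to 20.1 CPM in liver and 2.37 to 10.3 CPM in heart. With liver control 3 included, the difference between control liver and control heart was -0.84 and did not pass (edgeR adjusted p = 0.143).

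**Figure D5:**
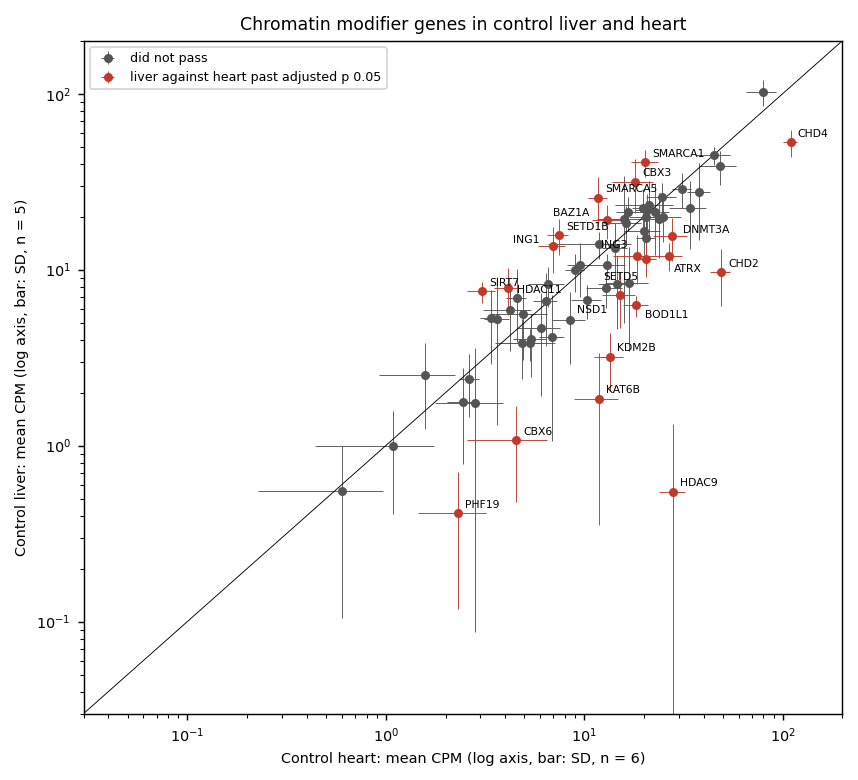
Mean CPM of the 68 members in control livers (vertical log axis, n = 5) and control hearts (horizontal log axis, n = 6), scaled over 23 libraries, with bars of 1 SD (a lower bar that would pass below 0 is cut short) and the line of equal levels. Red members passed an adjusted p of 0.05 in edgeR. HDAC9 lies farthest below the line, at 0.546 CPM in liver and 28.0 CPM in heart.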

How the data were processed

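The data were RNA-seq libraries of turkey heart and liver. Per the labels and the study's methods, the authors trimmed reads with fastp, aligned them with STAR to Turkey_5.1 and deposited RSEM estimated counts per Ensembl gene, here whole numbers. How strand was treated, which tool versions ran and what reduced the table to 11587 genes are not stated in the sources used here. Of 36 columns, 24 matched a sample and 12 matched none and were not used. Deposited tables of the authors' own comparisons (fold changes, p-values) were used only for gene symbols and positions.

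Groups came from the sample titles. edgeR 4.0.16 (R 4.3.3) fitted each tissue alone, and both tissues for the difference and the control tissues, with TMM, filterByExpr, robust quasi-likelihood F tests, a prior count of 2 and Benjamini-Hochberg adjustment. SEs were derived from the F statistic. P-values of the fits within a tissue measure the spread between birds. In the fits of both tissues they measure the spread between libraries, some of which can share a bird. The pen was not in any fit, so spread between pens was not separated. Feed was given ad libitum, and which birds shared a pen is not stated. If each pen received 1 diet, pen and diet cannot be told apart. The p-values would then treat birds of the same pen as independent and could be too small. No 2 libraries of a group were duplicates. Single measures per library were compared by exact permutation tests, two-sided. Tested on simulated counts, the heart fit recovered 27 of 100 genes changed 2-fold and 94 of 100 changed 4-fold. The liver fit recovered 31 and 77, and the fit of both tissues 3 and 50. Unchanged genes called were 11, 2 and 1, and a 2-fold change was often missed. Simulated libraries were independent, with 1 mean per gene and no tissue difference or span trend, so recovery in the real data can differ.

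Alternatives were DESeq2 1.42.0, limma-voom 3.58.1, other scalings, no filter, surrogate variables (sva 3.50.0), an offset for genomic span, a replicate block and libraries left out. The members, their roles and all gene lists (163 other chromatin genes, cell type markers) were chosen with earlier results of these data known. The 163 include the 42 genes of the members' families named by RefSeq only. Per comparison, named genes were those past the threshold (at most 10 per direction, else the 3 smallest p-values per direction), BOD1L1, the most abundant member of each role and members with an outlying value, if averaging at least 10 counts, and genes named beyond this, such as the extremes of a role, were chosen after their values were seen. Of 68 members, 9 overlap another gene model of the count table (BAZ1A, CBX6, CBX7, BRD9, SMARCD1, BRPF1, KDM1B, KDM3A and SETD4), and without known strand their counts are uncertain. Gene models absent from the count table were not checked, so 9 is a minimum. RefSeq names agreed for 59 members and were missing for 9.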

Additional observations from a re-analysis of the deposited data

Results flagged for a closer look

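Among 270 groups of 5 or 6 libraries looked at for the members, 18 had 1 library far from the rest, where chance gives about 5%. In Sal-exposed hearts these were library 1 for SETD7 (highest, 4.93 CPM), ING3 (highest, 29.1 CPM), PHF13 (highest, 18.2 CPM) and KDM2B (lowest, 5.05 CPM), library 5 for SETDB2 (highest, 6.37 CPM) and library 4 for HDAC10 (highest, 4.31 CPM). In control hearts they were library 3 for ASXL2 (lowest, 5.09 CPM) and library 2 for PHF10 (highest, 22.0 CPM) and ING3 (highest, 26.8 CPM). In Sal-exposed livers they were library 6 for BAZ1A (highest, 29.7 CPM) and CBX3 (highest, 31.6 CPM), library 4 for SETD5 (highest, 23.9 CPM) and ARID5A (highest, 59.9 CPM) and library 1 for PBRM1 (highest, 37.7 CPM). In control livers they were library 4 for KMT2A (lowest, 8.07 CPM) and CBX3 (highest, 51.5 CPM), library 2 for KAT6A (highest, 31.3 CPM) and library 6 for HDAC3 (highest, 45.2 CPM). Heart Sal-exposed library 1 held 4 of the 18, and it also stood apart in its share of counts on the members.

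The effect of Sal differed between liver and heart (edgeR, tissue by treatment term) for 12 members. The log2 difference, liver minus heart, was 2.94 for BOD1L1, 2.14 for KAT6B, 1.95 for ARID4B, 1.57 for ASXL2, 1.43 for DNMT3A, 1.41 for NSD1, 1.28 for KDM2B, 1.18 for ATRX, 1.06 for CHD4, 0.99 for BAZ1A, -0.75 for ASH2L and -1.60 for PHF13. BOD1L1, ARID4B, ATRX, KDM2B, CHD4, ASXL2, DNMT3A and NSD1 passed in each of the 23 fits without 1 library, KAT6B in 19, BAZ1A in 18, PHF13 in 22 and ASH2L in 6. With liver control 3 included, BOD1L1 (1.83, edgeR adjusted p = 0.0822), NSD1 (1.28) and KDM2B (1.21) no longer passed. Neither did BAZ1A (1.05), PHF13 (-1.22) or ASH2L (-0.34). Over 13 alternatives of method or samples, that one included, ARID4B passed in 13, BOD1L1 in 12, and ATRX and CHD4 in 11. KDM2B, DNMT3A and KAT6B passed in 10, ASXL2 in 9, BAZ1A in 8, NSD1 and ASH2L in 7 and PHF13 in 6. PHF13 was lost without heart Sal-exposed 1, KAT6B without heart Sal-exposed 5, liver Sal-exposed 1 or liver control 5 or 6, and BAZ1A without heart Sal-exposed 5, heart control 4 or 6, liver Sal-exposed 6 or liver control 5.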

How the results depend on the processing

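In heart the count of members past the threshold (2) was 6 with DESeq2, 13 with limma-voom, 4 with plain library totals, 12 with surrogate variables in edgeR and 12 in DESeq2, 1 with the span offset, and 0 to 4 when 1 library was left out. In liver (8) it was 14 with limma-voom, 4 with plain totals, 21 with surrogate variables in edgeR and 21 in DESeq2, 3 with the span offset, 0 with liver control 3 included, and 2 to 12 when 1 library was left out. For the difference (12) it was 19 with DESeq2, 24 with limma-voom, 7 with liver control 3 included and 9 to 21 when 1 library was left out. For the control tissues (21) it was 33 and 36 with surrogate variables in edgeR and DESeq2, and 34 without heart Sal-exposed libraries 1 and 5. It was 32 with liver control 3 included, and 20 to 31 when 1 library was left out. Shares over all genes are not given beside these counts. A higher or lower count therefore does not show that the members moved more or less than other genes. The members' medians ran from -0.34 to -0.08 in heart, 0.09 to 0.19 in liver, 0.24 to 0.51 for the difference and -0.41 to -0.11 for the control tissues when 1 library was left out. With plain totals they were -0.64 in heart, 0.24 in liver and 0.76 for the difference, with the span offset -0.070 in liver and -0.081 for the difference, and with liver control 3 included -0.84 for the control tissues. No pairing by replicate number was seen, but so few pairs cannot show that the samples are unpaired. Deviations of same-numbered Sal-exposed and control libraries correlated at -0.51 to 0.18 in heart and -0.17 to 0.08 in liver. Of these, 0 of 6 and 1 of 5 matched best with their own number. Same-numbered heart and liver libraries correlated at -0.39 to 0.19 in Sal-exposed and -0.18 to 0.11 in control birds. Here 1 of 6 and 1 of 5 matched best. With the replicate number as a block, 0 members passed in heart and 2 in liver (BOD1L1 and CHD2), and with block and span offset 0 in heart, 1 in liver (BOD1L1) and 2 for the difference (ARID4B and BOD1L1), with a liver median of -0.029. Within a tissue this block joins different birds, a Sal-exposed and a control bird of the same number. It lowers the residual degrees of freedom from 10 to 5 in heart and from 9 to 4 in liver. For the difference the block assumes that same-numbered heart and liver libraries of a treatment share a bird. Leaving out heart Sal-exposed libraries 1 and 5 was chosen after the data were seen. No member that passed changed sign in that comparison under any alternative run. Over all comparisons and alternatives, values of named members kept their direction and side of the threshold 1988 times, lost a call 172 times, gained one 38 times and changed sign 51 times, as follows. In heart, plain totals put CBX3 at -0.40, HDAC10 at -0.46, SETDB2 at -0.29, SIRT1 at -0.39, ING3 at -0.12 and KAT7 at -0.17, limma-voom put CBX3 at -0.11 and HDAC10 at -0.16, and surrogate variables (edgeR, then DESeq2) CBX3 at -0.16 and -0.15, KMT2C at 0.013 and 0.020 and ARID5A at 0.00011 and 0.0059. PHF10 was at 0.035 with the span offset and 0.015 with offset and block, and SIRT1 at -0.070 with the replicate block. Without 1 library, CBX3 ran from -0.089 to 0.20, SETDB2 from -0.034 to 0.15, SIRT1 from -0.094 to 0.24, HDAC10 from -0.16 to 0.16 and PHF10 from -0.34 to 0.24. Without Sal-exposed 1 and 5, BRD1 was at 0.054, SETD2 at 0.059, KMT2C at 0.091, KDM3A at 0.071 and PHF10 at 0.14. In liver, the span offset, alone and then with the block, put BAZ1A at -0.072 and -0.094, DNMT3A at -0.0068 and -0.062, KDM3A at -0.093 and -0.061 and KMT2A at -0.070 and -0.075. ARID5A was at -0.36 with limma-voom, -0.0029 with the replicate block and -0.35 to 0.27 without 1 library. HDAC3 was at 0.090 with limma-voom, 0.047 with liver control 3 included and -0.36 to 0.34 without 1 library, and PBRM1 at 0.021 with liver control 3 included. For the difference KAT7 was at 0.060 with plain totals. The causes were not tested.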
